A study of Homo sapiens with 9 samples.

Results

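Lactate dehydrogenases and lactate carriers are described here by 8 genes, chosen by name among the 61552 genes listed in each of 9 RNA-seq libraries of MDA-MB-231 cells. The genes cover lactate making and oxidation (LDHA, LDHB and LDHD), lactate transport (SLC16A1, SLC16A3, SLC16A7 and the chaperone BSG) and lactate sensing (HCAR1). All 8 were found and all 8 passed the filter on low counts, which left 16572 genes for testing. MDA-MB-231 is an established human triple-negative breast cancer (TNBC) cell line, labelled wild type. The cells were kept for 24 h without 2-deoxy-glucose (2-DG; control, phosphate-buffered saline), with 10 mM 2-DG or with 20 mM 2-DG, with 3 libraries per group, and the lactate-treated cells of the same study are not analysed here. The design asks which genes follow a change of lactate level, and 2-DG, a glucose analogue that hinders glycolysis, was used to lower it. Nothing in the sources says that the replicates were separate cultures, so p-values measure only the spread between these libraries, which may be technical. In bulk RNA, fewer cells of a kind and less RNA per cell cannot be told apart.

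Lactate dehydrogenase works as a tetramer of LDHA and LDHB subunits. LDHA-rich enzyme favours the step from pyruvate to lactate that restores cytosolic NAD+ in glycolytic cells, and LDHB-rich enzyme is typical of tissues that burn lactate. LDHD is a separate mitochondrial enzyme that oxidises D-lactate. Lactate crosses the plasma membrane together with a proton through monocarboxylate transporters: SLC16A3 (MCT4) is known as the exporter of glycolytic cells, SLC16A1 (MCT1) works in either direction, and SLC16A7 (MCT2) has a high affinity and is linked with uptake. BSG (basigin, CD147) is the glycoprotein that brings MCT1 and MCT4 to the cell surface, and HCAR1 (GPR81) is a receptor for extracellular lactate.

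The values are FPKM, read counts per gene divided by gene length and library total, so levels of different genes are compared per length. Library totals recovered from the files lay between 30974968 and 40843638 reads. The marker genes of the line were present (VIM 243 to 313 FPKM and AXL 89.9 to 126 FPKM over the 9 libraries), and those of hormone receptors were near 0, with ESR1 at most 0.008 FPKM and PGR at most 0.020 FPKM. The leukocyte markers PTPRC, CD3E and CD68 reached at most 0.094 FPKM. The summed level of 8 markers of other cell types, these included, was 6.56 to 7.77 FPKM in control libraries, 5.53 to 6.16 FPKM at the lower dose and 4.73 to 5.48 FPKM at the higher, and most of it was EPCAM, PECAM1 and COL1A1. Of the 4 of these markers that passed the filter, PECAM1 and PDGFRB fell at 20 mM, and the part of these small sums in the results was not tested. ERBB2 and GATA3 were present and fell too, from 8.39 to 9.11 FPKM in control libraries to 5.53 to 6.22 FPKM at 20 mM for ERBB2. HSPA5, an ER chaperone that 2-DG is known to induce, rose 4.22-fold and 5.22-fold in mean FPKM at 10 mM and 20 mM 2-DG.

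In the control, the 8 genes differed widely in level per length. LDHA was highest, at 377 ± 11.9 FPKM (SD, n = 3) and rank 73 among the genes tested, followed by BSG at 243 ± 15.7 FPKM (SD, n = 3), rank 126, and SLC16A3 at 75.9 ± 4.68 FPKM (SD, n = 3), rank 535. LDHB followed at 2.73 ± 0.573 FPKM (SD, n = 3), rank 8054. The other genes were below 1 FPKM: HCAR1 at 0.506 ± 0.164 FPKM, LDHD at 0.467 ± 0.253 FPKM, SLC16A7 at 0.355 ± 0.0887 FPKM and SLC16A1 at 0.0866 ± 0.0515 FPKM (SD, n = 3 each). HCAR1, LDHD and SLC16A7 overlapped between libraries, so their order is not set by these data, while the highest control value of SLC16A1 (0.142 FPKM) was below the lowest of these genes (0.207 FPKM, LDHD). The plot of FPKM by library shows the dehydrogenase and the exporter of glycolytic cells, with basigin, far above the rest at every dose.

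**Figure D1:**
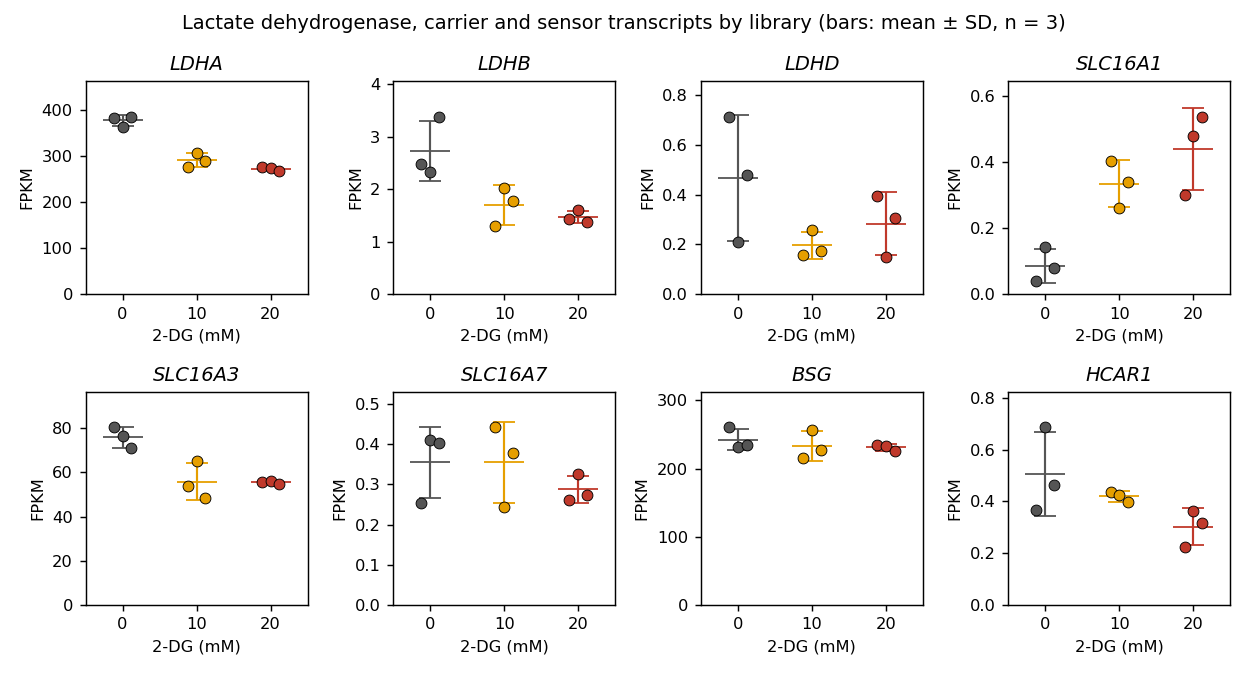
FPKM (y axis, linear, from 0) of the 8 genes in each of the 9 libraries against the 2-DG dose in mM (x axis); points are libraries and bars are mean ± SD (n = 3). LDHA, LDHB and SLC16A3 lie lower and SLC16A1 higher in all 2-DG libraries than in all control libraries, whereas BSG and SLC16A7 overlap at both doses.

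Promoter sequences are shown for the dehydrogenases LDHA and LDHB, for the carrier SLC16A3 and for its chaperone BSG, of which LDHA, LDHB and SLC16A3 fell and BSG did not pass the test. Each window runs from 250 bases before to 50 bases after an annotated start, on the strand of the gene (RefSeq, GRCh38.p14), and such windows were at hand for 5 of the 8 genes, 12 windows in all. Capitals mark ACGTG, the core of the hypoxia response element, and CACGTG, the E-box bound by MYC and related factors, on either strand; every CACGTG holds ACGTG on both strands.
LDHA, the first of 2 windows, chr11:18394313-18394612, plus strand: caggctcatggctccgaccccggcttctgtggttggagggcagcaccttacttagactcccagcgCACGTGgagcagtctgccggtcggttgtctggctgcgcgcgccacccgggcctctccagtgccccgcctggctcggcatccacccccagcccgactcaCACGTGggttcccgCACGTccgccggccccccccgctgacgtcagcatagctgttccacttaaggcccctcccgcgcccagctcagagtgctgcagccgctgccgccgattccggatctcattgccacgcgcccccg
LDHB, chr12:21657793-21658092, minus strand: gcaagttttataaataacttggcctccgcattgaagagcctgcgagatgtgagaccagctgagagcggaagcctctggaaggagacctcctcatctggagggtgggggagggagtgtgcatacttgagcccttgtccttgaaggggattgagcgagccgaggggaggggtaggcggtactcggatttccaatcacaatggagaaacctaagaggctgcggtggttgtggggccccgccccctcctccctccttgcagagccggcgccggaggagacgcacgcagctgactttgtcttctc
SLC16A3, the second of 5 windows, chr17:82228792-82229091, plus strand: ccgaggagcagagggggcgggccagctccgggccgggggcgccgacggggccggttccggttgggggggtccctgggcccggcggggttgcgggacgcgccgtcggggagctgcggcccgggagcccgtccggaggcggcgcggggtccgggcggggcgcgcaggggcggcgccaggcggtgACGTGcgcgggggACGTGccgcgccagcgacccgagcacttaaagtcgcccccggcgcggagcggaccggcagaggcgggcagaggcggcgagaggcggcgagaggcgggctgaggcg
BSG, the second of 2 windows, chr19:572346-572645, plus strand: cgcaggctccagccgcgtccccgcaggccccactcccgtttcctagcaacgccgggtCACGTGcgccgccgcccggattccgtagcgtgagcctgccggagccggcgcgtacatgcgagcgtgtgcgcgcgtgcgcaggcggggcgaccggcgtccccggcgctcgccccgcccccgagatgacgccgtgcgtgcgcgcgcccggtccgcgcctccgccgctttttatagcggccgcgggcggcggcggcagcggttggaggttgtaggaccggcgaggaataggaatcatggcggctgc
The LDHA window held CACGTG at 2 places, starting 185 and 87 bases before the start, and ACGTG once more on the minus strand close to the second of these. The SLC16A3 window held ACGTG at 2 places, 68 and 55 bases before the start, and no CACGTG. The BSG window held CACGTG 193 bases before the start, and the LDHB window held neither. The windows of LDHA, SLC16A3 and BSG are shown because they hold a match: ACGTG was in 3 of the 12 windows and CACGTG in 2, and the other window of LDHA, the other 4 of SLC16A3, the other of BSG and both of SLC16A7 held neither. Of 35116 promoter windows of this length, 21.4% held ACGTG and 7.26% held CACGTG. The CHOP-ATF4 element TGATGNAA (3.62% of windows) and the ER stress element (0.0769% of windows) were in none of the 12. A match of letters is a description and not a site, and no match says only that these letters are not in the window.

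LDHA, LDHB and SLC16A3 fell and SLC16A1 rose with 2-DG, at 10 mM and at 20 mM alike, while BSG, SLC16A7, LDHD and HCAR1 did not pass the test. LDHA fell to 77.0% and 72.3% of its control mean FPKM at 10 mM and 20 mM, LDHB to 62.1% and 53.9%, and SLC16A3 to 73.5% and 73.0%. SLC16A1 rose 3.87-fold and 5.07-fold in mean FPKM, from a very low level, and it passed the filter on low counts only through its treated libraries, which favours a call in that direction. The call was a Benjamini-Hochberg adjusted p under 0.05 over all genes tested, in limma's moderated test on log2(FPKM + 1), so that 4 of the 8 genes were called at each dose (1 higher and 3 lower). Over all genes tested, 29.7% were called at 10 mM (12.1% higher and 17.5% lower) and 37% at 20 mM (15.4% higher and 21.6% lower). The median log2 fold change of the 8 genes on this scale was -0.18 and -0.19, beside -0.01 and -0.02 over all genes tested. Nothing is read from these counts about the genes as a group. Both doses are compared with the same 3 control libraries.

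Among the dehydrogenases, LDHA was the most abundant. LDHA (ENSG00000134333; chromosome 11, 18394388 to 18408425, plus strand, GRCh38, GENCODE 29) was at 382, 364 and 386 FPKM in control libraries, at 276, 306 and 289 FPKM at 10 mM and at 275, 274 and 268 FPKM at 20 mM 2-DG. Every treated library was below every control library, and every 20 mM library was below every 10 mM library. Between the doses the gap was narrow, with 275.5 FPKM in 20 mM replicate 1 beside 275.8 FPKM in 10 mM replicate 1. The log2 fold change on log2(FPKM + 1) was -0.38 ± 0.06 (SE, adjusted p = 0.00187 from limma's test) at 10 mM and -0.47 ± 0.06 (SE, adjusted p = 0.000371) at 20 mM. The difference between the doses, -0.09 (95% confidence interval -0.23 to 0.05), did not pass the test (adjusted p = 0.892). Each LDHA value rested on between 51522 and 82011 reads. The 9 LDHA and LDHB pseudogenes listed, which could share reads with their parent genes, held 346 reads in all over the 9 libraries and reached at most 0.904 FPKM.

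LDHB was far below LDHA in every library. LDHB (ENSG00000111716; chromosome 12, 21635342 to 21757857, minus strand) was at 2.47, 2.32 and 3.38 FPKM in control libraries, at 1.29, 2.03 and 1.77 FPKM at 10 mM and at 1.43, 1.60 and 1.38 FPKM at 20 mM 2-DG. The treated libraries were all below the control libraries, and the doses overlapped. Its log2 fold change on log2(FPKM + 1) was -0.47 ± 0.13 (SE, adjusted p = 0.0257 from limma's test) at 10 mM and -0.58 ± 0.13 (SE, adjusted p = 0.00715) at 20 mM. The 10 mM call was lost in limma's test without control replicate 3 (log2 fold change -0.34, adjusted p = 0.0849), without 10 mM replicate 1 (-0.35, adjusted p = 0.0751), without 10 mM replicate 3 (-0.49, adjusted p = 0.0532), with only the 2 groups in the fit (adjusted p = 0.0610) and with every gene above 0 tested (adjusted p = 0.0716). Exons of LDHB share 997 of 2983 bases with AC010197.2 on the same strand, which was listed at 0 in every library.

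The share of LDHB in the sum of LDHA and LDHB was 0.716% ± 0.133 (SD, n = 3) in control libraries, per length, and 0.577% ± 0.10 and 0.536% ± 0.0383 at the lower and the higher dose. The ratio of LDHA to LDHB FPKM ranged from 114 to 156 in control libraries, from 151 to 214 in those with 10 mM and from 171 to 194 in those with 20 mM. Its mean log2 was 7.13 ± 0.26, 7.45 ± 0.26 and 7.54 ± 0.10 (SD, n = 3 each). The 10 mM range overlapped the control range and the 20 mM range did not. Over both doses together the log2 ratio was 0.36 higher than in the control, which did not pass a two-sided exact permutation test (p = 0.0714; 6 against 3 libraries, smallest possible p = 0.0238; adjusted p = 0.16 over 8 tests of ratios). The tests with 3 against 3 libraries have a smallest possible exact permutation p of 0.1. With these limits, an adjusted p over the 8 tests could not fall under 0.05 whatever the values, so it decides nothing. Leaving out each library in turn gave differences from 0.21 (without control replicate 3, exact permutation p = 0.214) to 0.44, and only without 10 mM replicate 2 (0.41) was the exact permutation p under 0.05, at 0.0357. With a pseudocount of 0.1 or 1 added to each FPKM value, the difference was 0.32 (exact permutation p = 0.0714) or 0.10 (p = 0.381).

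**Figure D2:**
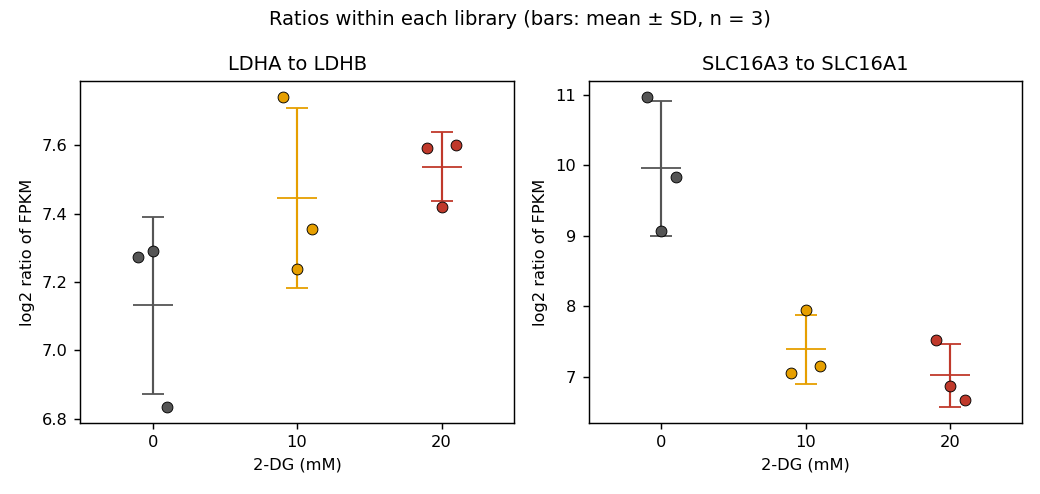
Log2 ratio of FPKM within each library (y axes, not from 0) of LDHA to LDHB and of SLC16A3 to SLC16A1 against the 2-DG dose in mM (x axes); points are libraries and bars are mean ± SD (n = 3). The LDHA to LDHB ratio overlaps between control and 10 mM, and the SLC16A3 to SLC16A1 ratio lies between 9.07 and 10.98 in the control and between 6.67 and 7.96 in the 2-DG libraries.

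LDHD (ENSG00000166816; chromosome 16, 75111860 to 75116771, minus strand) had few reads, between 13 and 60 per library. It was at 0.713, 0.207 and 0.480 FPKM in control libraries, at 0.156, 0.258 and 0.172 FPKM at 10 mM and at 0.395, 0.149 and 0.307 FPKM at 20 mM 2-DG. The groups overlapped, and control replicate 2 lay within the treated range. Its log2 fold changes, -0.28 and -0.18 on log2(FPKM + 1), did not pass limma's test (adjusted p = 0.0988 at 10 mM and 0.254 at 20 mM). Without control replicate 2 they were -0.41 (adjusted p = 0.0135) and -0.32 (adjusted p = 0.0319), and without control replicate 1 they were -0.16 (adjusted p = 0.293) and -0.06 (adjusted p = 0.681).

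Of the carriers SLC16A1, SLC16A3 and SLC16A7, SLC16A3 had by far the highest FPKM. SLC16A3 (ENSG00000141526; chromosome 17, 82228397 to 82261129, plus strand) was at 80.5, 76.3 and 71.1 FPKM in control libraries, at 53.9, 65.1 and 48.5 FPKM at 10 mM and at 55.5, 56.0 and 54.8 FPKM at 20 mM 2-DG. All 6 treated libraries were below the control libraries, and the 20 mM libraries lay within the 10 mM range. The log2 fold change on log2(FPKM + 1) was -0.45 ± 0.10 at each dose (SE; adjusted p = 0.00667 at 10 mM and 0.00506 at 20 mM in limma's test). Between the doses it was close to 0 (95% confidence interval -0.21 to 0.21). Exons of SLC16A3 share 482 bases, 5.36% of their length, with CSNK1D on the opposite strand, which averaged 21.2 FPKM, and whether the counting used the strand is not given in the sources used here.

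SLC16A1 was the gene that rose, and also the lowest in the control. SLC16A1 (ENSG00000155380; chromosome 1, 112911847 to 112957013, minus strand) was at 0.0399, 0.142 and 0.0781 FPKM in control libraries, at 0.404, 0.262 and 0.339 FPKM at 10 mM and at 0.300, 0.479 and 0.539 FPKM at 20 mM 2-DG. These values stand for 9, 33 and 17 reads in control libraries, 90, 68 and 74 reads at 10 mM and 59, 121 and 113 reads at 20 mM. No treated library reached down to the control range, and the doses overlapped. Only 2 of the control libraries held 10 reads or more, so the gene passed the filter through its treated libraries. On log2(FPKM + 1), where a low gene moves little, the log2 fold change was 0.30 ± 0.07 (SE, adjusted p = 0.0111 from limma's test) at 10 mM and 0.40 ± 0.07 (SE, adjusted p = 0.00166) at 20 mM. On the recovered reads, limma-voom gave log2 fold changes of 2.05 ± 0.46 (SE, adjusted p = 0.00344) and 2.46 ± 0.45 (SE, adjusted p = 0.000609). With every gene above 0 tested, the 10 mM call was lost (limma adjusted p = 0.0540) and the 20 mM call was not (adjusted p = 0.0123). The summed reads, scaled by the library totals, differed by 1.92 on the log2 scale (95% exact binomial interval 1.51 to 2.36) at 10 mM and by 2.35 (1.94 to 2.78) at 20 mM, intervals that cover counting error only. At its highest SLC16A1 was still below 1 FPKM, under 1% of the FPKM of SLC16A3 in every library.

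The ratio of SLC16A3 to SLC16A1 FPKM was 2015, 538 and 911 in the control libraries, 134 to 248 at the lower dose and 102 to 185 at the higher. The control ratios rest on 9, 33 and 17 reads of SLC16A1. As SLC16A1 passed the filter through its treated libraries, a lower ratio with 2-DG was favoured from the start. Its mean log2 was 9.96 ± 0.96, 7.39 ± 0.49 and 7.02 ± 0.45 (SD, n = 3 each). Over both doses the log2 ratio was lower by 2.75, and the two-sided exact permutation test gave p = 0.0238, the smallest that 6 against 3 libraries allow (adjusted p = 0.16 over 8 tests, a value that could not fall under 0.05 in this design). It is not separate support, since SLC16A3 and SLC16A1 were each already called from the same values. Each dose alone reached the smallest possible exact permutation p of 0.1 for 3 against 3. With a pseudocount of 0.1 or 1 added to each FPKM value, the difference was -1.84 or -0.80, and without any 1 control library the smallest p the design allows was 0.0714.

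SLC16A7 (ENSG00000118596; chromosome 12, 59596067 to 59789855, plus strand) was at 0.253, 0.410 and 0.402 FPKM in control libraries, at 0.442, 0.245 and 0.378 FPKM at 10 mM and at 0.262, 0.327 and 0.274 FPKM at 20 mM 2-DG. The groups overlapped. The log2 fold change on log2(FPKM + 1) was 0.00 (95% confidence interval -0.15 to 0.15) at 10 mM and -0.07 (-0.22 to 0.08) at 20 mM, and neither passed limma's test (adjusted p = 0.996 and 0.441).

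The chaperone BSG (ENSG00000172270; chromosome 19, 571277 to 583493, plus strand) was at 261, 232 and 235 FPKM in control libraries, at 215, 257 and 228 FPKM at 10 mM and at 234, 233 and 225 FPKM at 20 mM 2-DG. The groups overlapped at both doses. Its log2 fold change on log2(FPKM + 1) was -0.06 (95% confidence interval -0.24 to 0.12; adjusted p = 0.616 in limma's test) at 10 mM and -0.07 (-0.25 to 0.11; adjusted p = 0.531) at 20 mM. These intervals leave out a value as low as the estimate of -0.45 for SLC16A3. They overlap the intervals of SLC16A3, which reach -0.23 at each dose, and a difference between BSG and SLC16A3 was not tested. Exons of BSG share 140 bases with BSG-AS1 on the opposite strand, at most 2.90 FPKM.

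The lactate receptor HCAR1 (ENSG00000196917; chromosome 12, 122726076 to 122730843, minus strand) was at 0.366, 0.687 and 0.465 FPKM in control libraries, at 0.436, 0.426 and 0.397 FPKM at 10 mM and at 0.223, 0.364 and 0.317 FPKM at 20 mM 2-DG, on 33 to 120 reads per library. The 20 mM libraries lay below both other groups, but the highest of them (0.364 FPKM) was next to the lowest control library (0.366 FPKM). Mean FPKM at 20 mM was 59.6% of the control, and the log2 fold change of -0.21 ± 0.08 (SE) on log2(FPKM + 1) did not pass limma's test (adjusted p = 0.0612, and 0.0743 in limma-voom). Leaving out each library in turn moved it from -0.12 (without control replicate 2, adjusted p = 0.187) to -0.27 (without control replicate 1, adjusted p = 0.0233, the only one of these fits in which it was called), and without 20 mM replicate 1 it was -0.16 (adjusted p = 0.195). At 10 mM the groups overlapped and the log2 fold change was -0.08 (adjusted p = 0.482).

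**Figure D3:**
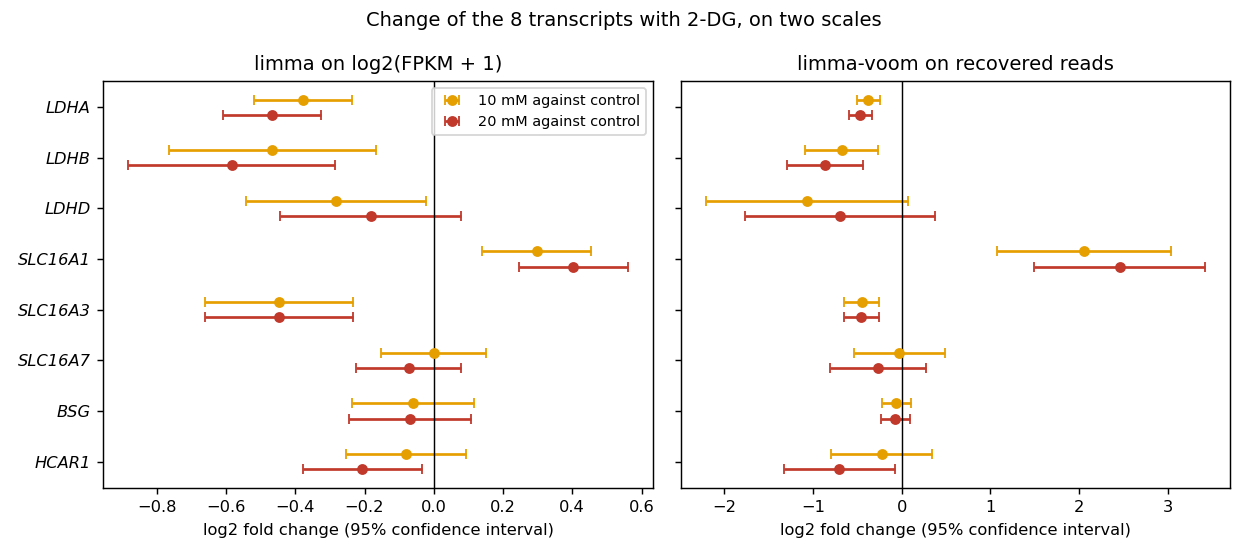
Log2 fold change against control (x axes, with 95% confidence intervals) of the 8 genes (y axis) at 10 mM and 20 mM 2-DG, by limma on log2(FPKM + 1) on the left and by limma-voom on recovered reads on the right. SLC16A1 lies at 0.30 and 0.40 on the left and at 2.05 and 2.46 on the right, while LDHA and SLC16A3 hardly differ between the scales.

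The same 4 genes were called by limma-voom at both doses, where 31.2% and 38.1% of all genes tested were called. Counting only genes whose libraries did not overlap between groups, 4 of the 8 genes were apart at 10 mM and 5 at 20 mM 2-DG, HCAR1 being the fifth, beside 40.5% and 53.3% of all genes tested. The thresholds in the study's methods ask for more than a doubling or halving (log2 fold change beyond 1) at an unadjusted p under 0.05, and by these 0 of the 8 genes were called at either dose on log2(FPKM + 1), beside 1.74% and 2.92% of all genes. That count depends on the scale, since the log2 fold change of SLC16A1 was 1.24 and 1.54 with a pseudocount of 0.1 and 2.05 and 2.46 in limma-voom, past both thresholds. An unadjusted p under 0.05 alone was reached by 5 of the 8 genes at each dose, beside 40.4% and 46% of all genes.

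Between 20 mM and 10 mM 2-DG, 0 of the 8 genes and 0% of all genes tested had an adjusted p under 0.05 in limma's test, and limma-voom also called 0. At an unadjusted p under 0.05 there were 0 of the 8 genes and 6.87% of all genes. LDHA and HCAR1 were lower in every 20 mM library than in every 10 mM library, for LDHA only narrowly (275.5 and 275.8 FPKM). Of all genes, 11.9% did not overlap between these groups. The adjusted p of the 8 genes lay between 0.845 and 1.00. The largest estimates on log2(FPKM + 1) were -0.13 (95% confidence interval -0.30 to 0.05) for HCAR1, -0.12 (-0.42 to 0.18) for LDHB and 0.11 (-0.05 to 0.26) for SLC16A1.

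For each of the 4 called genes, the 3 protein-coding genes with the most similar profile were found among 9825 genes, by the root mean square distance of log2(FPKM + 1) less its control mean over the 9 libraries. They were H3-3B, HNRNPAB and ST3GAL4 for LDHA (distance 0.030 to 0.038), and HSD17B7, SMIM30 and GGH for LDHB (0.070 to 0.082). For SLC16A1 they included SUSD1 and REPS2 (0.045 and 0.050), and for SLC16A3 they were PLPP2, PFKL and GMPR (0.049 to 0.050). PFKL, the liver-type phosphofructokinase of glycolysis, went from 26.4 to 18.7 FPKM between control and 20 mM. Pearson correlations of these genes with their partner over the 9 libraries lay between 0.96 and 0.99, a description only, since the genes were picked for likeness and the libraries fall into 3 groups.

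Other genes of lactate and pyruvate handling, listed by function or gene family, are described at 20 mM 2-DG by the same test and the same background of 15.4% higher and 21.6% lower. Of the other lactate dehydrogenase genes, only UEVLD, named here after its values were seen, passed the filter. It was not called (3.65 FPKM in the control and 3.73 FPKM at 20 mM). LDHC, LDHAL6A and LDHAL6B were nearly silent and did not pass the filter. The sodium-coupled carriers SLC5A8 and SLC5A12 did not pass the filter either. The other SLC16 carriers were listed by family, and whether each of them carries lactate was not tested. Of these carriers, 10 of 11 were tested, 2 were higher and 3 lower. SLC16A5 (MCT6) fell from 6.78 ± 0.327 to 4.29 ± 0.547 FPKM, while SLC16A13 rose from 3.92 ± 0.401 to 5.21 ± 0.195 FPKM (SD, n = 3 each; adjusted p = 0.00093 and 0.0151 in limma's test). The other higher carrier held only 16 reads in all control libraries together. It passed the filter through its treated libraries, which favours a call in that direction, and limma-voom did not call it (adjusted p = 0.0773).

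The other chaperones and the membrane partners of basigin did not move alike. EMB (embigin, which escorts MCT2) fell from 2.21 ± 0.171 to 1.14 ± 0.136 FPKM (SD, n = 3; adjusted p = 0.00626), and NPTN (neuroplastin) was at 30.9 ± 1.91 and 26.8 ± 1.29 FPKM (adjusted p = 0.05002, just above the threshold). Of 4 basigin partners, 2 were higher and 2 lower. SLC3A2 (CD98 heavy chain) rose 4.19-fold, from 108 ± 4.40 to 451 ± 18.1 FPKM, and its amino acid carrier SLC7A5 1.53-fold, from 78.4 ± 4.53 to 120 ± 1.66 FPKM. PPIA (cyclophilin A, a ligand of basigin) fell from 225 to 182 FPKM and CD44 from 69.8 to 56.6 FPKM in the means.

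Genes that handle the protons carried with lactate were mostly lower, 4 of 6, with 1 higher. The carbonic anhydrases CA2 and CA12 fell from 4.02 ± 0.374 to 1.33 ± 0.305 FPKM and from 3.46 ± 0.153 to 1.69 ± 0.269 FPKM (SD, n = 3 each). On log2(FPKM + 1) their log2 fold changes were -1.11 and -0.73 (adjusted p = 8.66e-05 and 0.000232 in limma's test).

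Of 15 genes of mitochondrial pyruvate entry, 2 were higher and 6 lower at 20 mM 2-DG. The subunits of the mitochondrial pyruvate carrier moved in opposite directions: MPC1 rose from 9.50 ± 0.399 to 13.3 ± 0.770 FPKM and MPC2 fell from 6.12 ± 1.38 to 3.35 ± 0.261 FPKM (SD, n = 3 each; adjusted p = 0.00113 and 0.00730). PC, pyruvate carboxylase, rose from 26.2 ± 2.22 to 42.8 ± 0.625 FPKM, and DLAT, a subunit of pyruvate dehydrogenase, fell from 8.98 ± 0.842 to 6.20 ± 0.905 FPKM. PDK1, a kinase that turns this complex off, was at 1.68 ± 0.332 and 1.80 ± 0.0402 FPKM and was not called (adjusted p = 0.673). Of 9 genes of the shuttles that oxidise cytosolic NADH, the alternative to lactate making, 0 were higher and 5 lower, among them SLC25A11, SLC25A12 and MDH1 at 61.7%, 55.4% and 67.3% of their control mean FPKM. Of 5 alanine and malic enzymes, 4 were higher and 0 lower. GPT2, which makes alanine from pyruvate, rose 2.06-fold in mean FPKM, and ME1 and ME3, which make pyruvate from malate, 1.36-fold and 1.32-fold.

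**Figure D4:**
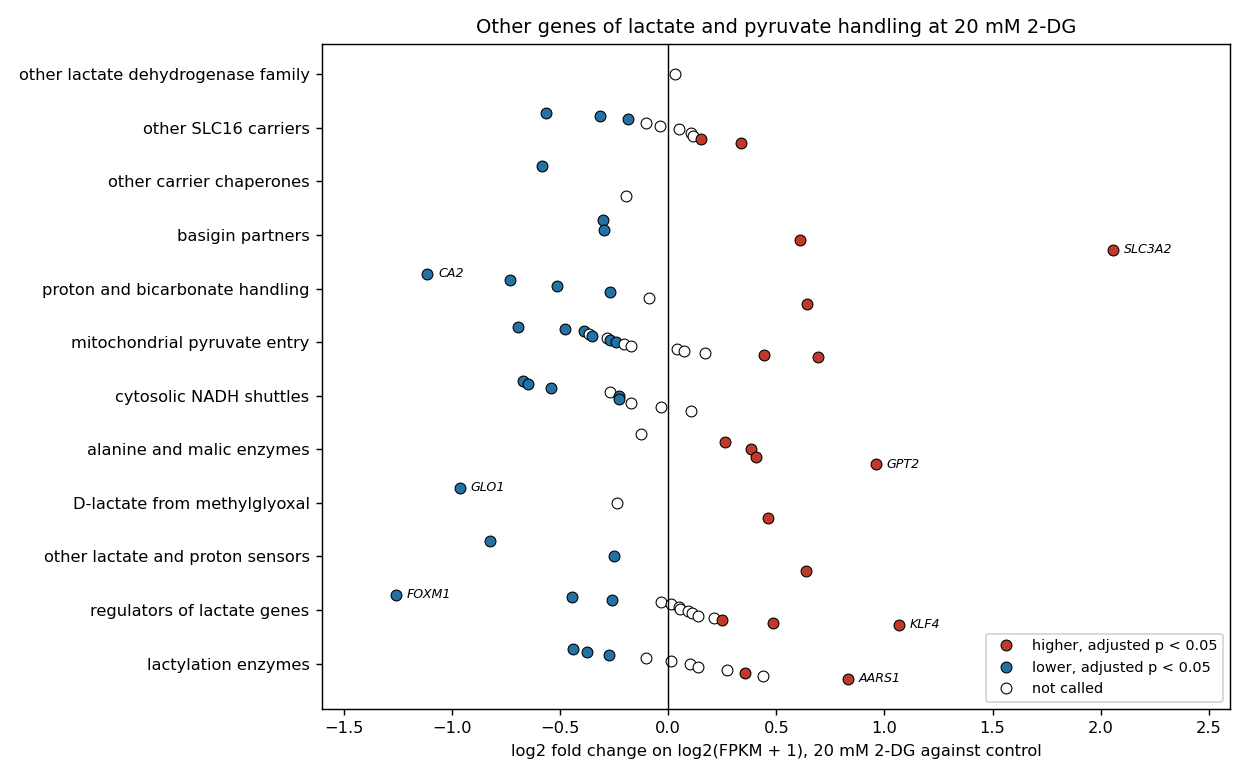
Log2 fold change on log2(FPKM + 1) at 20 mM 2-DG against control (x axis) of the tested genes in each of 12 lists of lactate and pyruvate handling (y axis); points are genes, filled where the adjusted p from limma's test was under 0.05. The alanine and malic enzymes have 4 of 5 genes higher, the cytosolic NADH shuttles 5 of 9 lower and 0 higher, and most other lists hold genes on both sides.

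D-lactate is made from methylglyoxal, a by-product of glycolysis, by the glyoxalases, and LDHD takes it up from there. GLO1, which takes the first step, fell from 101 ± 13.2 to 50.9 ± 2.01 FPKM (SD, n = 3), 50.6% of the control (adjusted p = 7.13e-05 in limma's test), and HAGHL, related to the second enzyme, rose from 4.45 ± 0.329 to 6.49 ± 0.218 FPKM. Of the other lactate and proton sensors, 3 of 7 were tested and all 3 were called. NDRG3, a protein that binds lactate, fell from 29.7 ± 1.06 to 24.8 ± 0.132 FPKM. GPR132, a receptor of the proton-sensing family, rose 2.84-fold from 0.430 ± 0.0701 to 1.22 ± 0.113 FPKM.

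Of 14 regulators known to act on lactate genes, 3 were higher and 3 lower at 20 mM 2-DG. MYC, an activator of LDHA, rose from 41.0 ± 1.64 to 57.8 ± 1.21 FPKM (SD, n = 3; log2 fold change 0.49, adjusted p = 8.88e-05 in limma's test). HIF1A, whose protein drives LDHA and SLC16A3 in hypoxia, fell from 85.8 ± 12.6 to 62.5 ± 5.25 FPKM (log2 fold change -0.44, adjusted p = 0.0380), and at 10 mM it was not called (68.98 ± 13.1 FPKM, adjusted p = 0.133). FOXM1, which is tied to cell division and also binds the LDHA promoter, fell from 39.0 ± 2.77 to 15.7 ± 0.193 FPKM, and KLF4 rose from 25.1 ± 0.581 to 53.6 ± 1.58 FPKM. These are transcript levels of the regulators, and the part of any of them in the levels of LDHA, LDHB, SLC16A1 or SLC16A3 was not tested.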

How the data were processed

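RNA-seq libraries of MDA-MB-231 cells were made by the authors with a Qiagen RNA kit and the SMARTER mRNA-Seq kit and sequenced on an Illumina Novaseq instrument. The authors deposited FPKM values, in a file of each library, with 61552 genes (20495 of them unnamed). The submitters' processing notes name GRCh38 (hg38), and the aligner, counter, annotation release and strandedness are not given in the sources used here. Groups were taken from the labels. The 8 genes and all gene lists were chosen with earlier results of these data known.

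Every FPKM value is a whole number of reads times a step set by gene length and library total. The totals were found from GENCODE 29 exon lengths (within 0.0004 of a whole number), and gene lengths by searching upwards until all 9 values became whole reads. Reads were recovered for 32806 of 32806 genes above 0, and make up 99.8% to 99.9% of the totals. They are not the authors' counts, and a common factor of reads and length cannot be seen. Shared exon bases were taken from GENCODE 29. The lengths found were above its exon lengths for SLC16A3 (9236 and 8995 bases), BSG (4418 and 3797) and SLC16A1 (6347 and 5312). For these genes the exons behind the authors' values therefore differ from those used for the overlaps. A gene was tested (16572 genes) if 3 or more libraries held 10 or more reads, scaled to the median total, and all libraries together 15 or more. For a gene of 1 kb, a single read amounts to 0.0245 to 0.0323 FPKM.

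limma 3.58.1 in R 4.3.3 was run on log2(FPKM + 1) with its trend option, all 9 libraries in 1 fit, no replicate block and Benjamini-Hochberg adjustment. The pseudocount understates changes of genes at low FPKM. Ratios were tested per library by exact permutation. The steps were tested on simulated data in which 200 of 16572 genes differed between 20 mM 2-DG and control: limma on log2(FPKM + 1) called 94.5% of these and 14 unchanged genes, and limma-voom on the reads 98% and 8. The simulated changed genes had higher mean control reads than SLC16A1 and LDHD, and each changed more than LDHA or SLC16A3. The simulated spread between libraries was fixed and not taken from the real replicates. These shares therefore do not give the sensitivity for the 8 genes. Replicates correlated at 0.989 to 0.996 and differed by at least 4.68 times the sampling variance, so no library was taken for a copy of another. This spread was 14.3 to 21.8 times the sampling variance in the control, 26.7 to 57.1 at 10 mM and 4.68 to 6.63 at 20 mM. The 1 fit shares an estimate of spread over these unlike groups. Named genes were the 8, at most the 3 called genes per list with the largest change at 20 mM, genes with a defining role (MYC, HIF1A, EMB, NPTN, MPC1, MPC2 and PDK1), antisense genes and pseudogenes of the 8, and nearest profiles. Pseudocount, filter, scaling, fit, call rule and libraries were varied. Some genes of these lists are not reported here.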

Additional observations from a re-analysis of the deposited data

How the results depend on the processing

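Tested with limma, the 4 called genes kept direction and call at both doses with a pseudocount of 0.1, with median-ratio or upper-quartile scaling (which put the median log2 fold change of all genes between 0.00 and 0.02) and with limma-voom, alone or with median-ratio factors. With every gene above 0 tested, 2 of the 8 genes were called at 10 mM 2-DG (LDHA and SLC16A3), where LDHB and SLC16A1 had adjusted p of 0.0716 and 0.0540; more genes were tested and adjusted over. With the threshold on fold change, 0 were called at either dose on log2(FPKM + 1), where SLC16A1 stays below it. SLC16A1 has no value where 10 reads were asked for in every library, and HCAR1 was then called at 20 mM (adjusted p = 0.0443). Leaving out each library in turn gave 3 to 5 calls at 10 mM, 4 to 5 at 20 mM and 0 between the doses. The log2 ratio of LDHA to LDHB then differed from the control by 0.21 to 0.44, and that of SLC16A3 to SLC16A1 by -3.20 to -2.24. Same-numbered libraries deviated together with correlations from -0.41 to 0.29, and differently numbered ones with correlations from -0.23 to 0.52. Pairing by number is not seen in these values, but deviations from means of 3 libraries cannot exclude it. With the replicate block, 4 genes were called at 10 mM and 5 at 20 mM (HCAR1 added, adjusted p = 0.0497), and the difference of -2.75 in the log2 ratio of SLC16A3 to SLC16A1 had an exact permutation p of 0.25 by flipping the signs of the 3 within-number differences, the smallest such a test allows. Of 429 values of single genes under alternatives, 398 kept call and direction, 6 lost a call, 5 gained one, 20 that were not called differed in sign, and 0 reversed. Only genes called in the main fit could lose a call, and the 429 include the comparison between the doses, where 0 were called. Leaving out a library outside a comparison also keeps its fold change the same, so the count overstates the stability. Depth limits LDHD, SLC16A1 and HCAR1, which had 9 to 121 reads per library.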

Other observations

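Lactate can also mark lysines as lactylation, and 11 genes known as writers or erasers of this mark were tested at 20 mM 2-DG. Of these, 2 were higher and 3 lower than in the control, and 6 were not called, beside 15.4% higher and 21.6% lower over all genes tested. AARS1, an alanyl-tRNA synthetase that can attach lactate to proteins, rose from 21.0 ± 1.19 to 38.0 ± 0.909 FPKM (SD, n = 3; log2 fold change 0.83 on log2(FPKM + 1), adjusted p = 1.06e-05 in limma's test). The deacetylases HDAC2 and HDAC3, which can remove the mark, fell from 9.30 ± 1.13 to 6.57 ± 0.215 FPKM and from 19.3 ± 1.10 to 14.6 ± 0.260 FPKM (SD, n = 3 each; adjusted p = 0.00967 and 0.00127). At 10 mM 2-DG the counts were also 2 higher and 3 lower (12.1% and 17.5% over all genes tested), and between the doses 0 were called, with 0% of all genes called in that comparison.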
